A study of Mus musculus with 17 samples.

Results

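The 9 genes followed here across the libraries encode transcription factors of the subcortical forebrain, namely Isl1, Lhx8, Barhl2, Six3, Nkx2-1, Gbx1, Dlx5, Dlx6 and Zic1. They were taken by symbol from the 56953 genes of the count table and were chosen on measured values, because Isl1, Lhx8 and Barhl2 had 0 counts in every PS19 library and counts in WT. Each of the 9 symbols matched 1 gene, and 8 of them are homeobox genes, Zic1 being the exception. Absence from PS19 held for 3 of the 9 genes only: Nkx2-1 and Gbx1 had counts in 5 of the 6 PS19 libraries, and Six3, Dlx5, Dlx6 and Zic1 in all 6.

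RNA of the prefrontal cortex was measured by bulk mRNA sequencing in 5 WT, 6 PS19 and 6 CgA-KO/PS19 mice, 8 months old by the labels. The study's text also gives another age for them. PS19 mice are heterozygous for a transgene of human Tau that bears the P301S mutation and is driven by the mouse Prnp promoter. CgA-KO/PS19 mice carry the same transgene and lack Chga, the gene of Chromogranin A, in the whole body. WT mice carry neither change, all 3 groups are on the B6C3F1/J background, no group with the Chga knockout alone was sequenced, and both sexes were used without the sex being given for each library.

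Homeodomain factors bind DNA through a shared protein fold, and combinations of them give neurons of the ventral forebrain their identity during development and keep it in the adult. The LIM homeodomain factors Isl1 and Lhx8 act with the adaptor Ldb1 and are known for their roles in cholinergic neurons, and Isl1 also for its role in striatal projection neurons. Dlx5 and Dlx6 are neighbouring genes of GABAergic neurons, present in striatal neurons and in cortical interneurons, whereas projection neurons of the cortex use other factors such as Tbr1 and Emx1.

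A library held 8838334 to 227651681 counts, and the most common low count was 3 in all 17 libraries, so that about 3 deposited counts stood for 1 fragment. Levels are given as CPM, counts per 1000000 counts of the library after TMM scaling. A count of 0 was read as at most 3 fragments, or 9 counts, which allows 0.0396 to 0.164 CPM in a PS19 library, 0.0496 to 0.26 CPM in a CgA-KO/PS19 library and 0.046 to 1.03 CPM in a WT library. Such limits include no error but that of counting. The targeted gene, Chga, had 0 counts in all 6 CgA-KO/PS19 libraries, against 162.5 ± 11.9 CPM (WT, SD, n = 5) and 168 ± 6.68 CPM (PS19, SD, n = 6). Prnp, whose counts can hold transcripts of the transgene, was 747.6 to 914.5 CPM in WT, 1974 to 2368 CPM in PS19, 1236 to 1348 CPM in CgA-KO/PS19 replicates 1 to 3 and 1676 to 2079 CPM in replicates 4 to 6. Ddx3y, a Y-linked gene, exceeded 1 CPM in the first 3 replicates of every genotype, and the other libraries had at most 0.0582 CPM. Some libraries stood apart. CgA-KO/PS19 replicates 1 and 3 were the closest pair of their genotype, with a root mean square difference over all genes tested of 0.271 on the log2(CPM + 1) scale, against a median of 0.493 over the 15 pairs. PS19 libraries were 0.219 to 0.340 apart and WT libraries 0.338 to 0.670. Choroid plexus markers summed to 1115 CPM in WT replicate 5 against 14.5 to 18.6 CPM in the other WT libraries, and olfactory bulb markers to 112.5 CPM in WT replicate 3 against 9.81 to 27.5 CPM.

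The 250 bases before the RefSeq start site (assembly GRCm38.p6) are printed for 2 genes at 0 in PS19 and for Six3, the gene with the largest range among CgA-KO/PS19 libraries. The Six3 window lies inside the GENCODE locus given below, which begins at an earlier start, and the Lhx8 window overlaps the end of its locus. A window was found for 6 of the 9 genes, and Gbx1, Dlx5 and Dlx6 had none. Capitals mark the CCAAT box, searched as CCAAT on both strands, so that ATTGG marks a match on the other strand.
Isl1, chr13:116309689-116309938, minus strand: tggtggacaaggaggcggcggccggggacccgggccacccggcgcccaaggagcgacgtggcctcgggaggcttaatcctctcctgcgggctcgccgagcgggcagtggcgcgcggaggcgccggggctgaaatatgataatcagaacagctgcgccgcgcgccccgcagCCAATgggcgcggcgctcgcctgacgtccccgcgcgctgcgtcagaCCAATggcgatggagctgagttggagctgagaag
Lhx8, chr3:154330561-154330810, minus strand: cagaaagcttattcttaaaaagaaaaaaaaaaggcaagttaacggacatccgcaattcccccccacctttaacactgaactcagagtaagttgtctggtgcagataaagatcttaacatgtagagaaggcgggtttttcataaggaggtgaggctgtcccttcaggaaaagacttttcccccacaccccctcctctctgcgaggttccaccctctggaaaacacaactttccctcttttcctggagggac
Six3, chr17:85620584-85620833, plus strand: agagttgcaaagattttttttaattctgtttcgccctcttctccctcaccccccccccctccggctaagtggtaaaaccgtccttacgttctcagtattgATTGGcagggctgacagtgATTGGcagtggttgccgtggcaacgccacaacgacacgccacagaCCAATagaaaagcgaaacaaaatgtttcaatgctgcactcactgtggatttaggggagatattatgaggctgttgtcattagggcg
The Isl1 window held 2 CCAAT boxes, the Six3 window 3 and the Lhx8 window 0. Over the 6 windows, 3 held a CCAAT box (Isl1, Six3 and Zic1), against 33.8% of all 32851 windows of this length. The homeodomain core TAATTA and the TATA box TATAAA, searched on both strands, were in 0 of the 6 windows, against 4.84% and 12.4% of all. The windows fell into GC-rich and AT-richer ones: G+C was 74.8% for Barhl2, 71.2% for Isl1 and 66% for Zic1, but 50.8% for Nkx2-1, 48.8% for Six3 and 46% for Lhx8, beside a median of 52.4% over all windows. The ratio of observed to expected CpG was 1.03 for Barhl2, 1.05 for Isl1 and 0.309 for Lhx8, beside a median of 0.374. The genes at 0 counts in PS19 therefore did not share 1 base composition before their RefSeq start, and a match is a description of these letters, not evidence of a bound factor.

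Isl1 (ENSMUSG00000042258), a LIM homeodomain factor of striatal and cholinergic neurons, is at chromosome 13, 116298281 to 116309689, on the minus strand (GRCm38, the mm10 build). Isl1 was 1.19, 1.49, 4.25, 2.85 and 4.59 CPM in WT replicates 1 to 5 and 0 in all 6 PS19 libraries. In CgA-KO/PS19 replicates 1 to 6, Isl1 was 2.03, 0.857, 2.83, 0, 0 and 0 CPM. WT and PS19 did not overlap, and the CgA-KO/PS19 libraries fell on both sides: replicates 1 and 3 lay within the WT range, replicate 2 below it, and replicates 4 to 6 were at 0 as in PS19. The WT mean of 2.87 ± 1.55 CPM (SD, n = 5) exceeded the upper limit of the shallowest PS19 library, 0.164 CPM, by at least 17.5-fold. CgA-KO/PS19 replicates 1, 2 and 3 were at least 12.4-fold, 5.23-fold and 17.2-fold above that limit. In bulk RNA, fewer cells of a type and less RNA per cell cannot be told apart.

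Lhx8 (ENSMUSG00000096225), a LIM homeodomain factor needed for forebrain cholinergic neurons, lies on chromosome 3 from 154306294 to 154330659, minus strand. It was 1.39, 1.11, 2.98, 1.48 and 4.17 CPM in WT replicates 1 to 5, the fourth of these resting on 13 counts, and 0 in all 6 PS19 libraries. Lhx8 was 1.23, 0, 1.27, 0, 0 and 0 CPM in CgA-KO/PS19 replicates 1 to 6. Only replicates 1 and 3 of CgA-KO/PS19 had Lhx8 counts, both near the low end of the WT range, and replicate 2, which had Isl1, had no Lhx8 above its limit of 0.179 CPM. The WT mean of 2.23 ± 1.31 CPM (SD, n = 5) was at least 13.6-fold above the limit in PS19, and CgA-KO/PS19 replicates 1 and 3 were at least 7.51-fold and 7.76-fold above it.

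Barhl2 (ENSMUSG00000034384), a Bar-class homeodomain factor known from the diencephalon, retina and spinal cord, lies on chromosome 5 from 106452523 to 106458166, minus strand. It was 0.781, 1.58, 0.970, 3.08 and 4.0 CPM in WT replicates 1 to 5, and 0 in all 6 PS19 libraries. Barhl2 was 1.77, 0.0797, 1.51, 0, 0 and 0 CPM in CgA-KO/PS19 replicates 1 to 6, where the value of replicate 2 rests on 4 counts. The same 2 CgA-KO/PS19 libraries lay within the WT range, and the other 4 were below it. The WT mean was 2.08 ± 1.40 CPM (SD, n = 5), at least 12.7-fold above the limit in PS19, and CgA-KO/PS19 replicates 1 and 3 were at least 10.8-fold and 9.24-fold above it.

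Six3 (ENSMUSG00000038805), a homeodomain factor of the anterior forebrain and eye that is also known from striatopallidal neurons, lies on chromosome 17 from 85613608 to 85629302, plus strand. It was 12.3, 13.6, 29.1, 23.0 and 10.5 CPM in WT replicates 1 to 5. In PS19 it was 0.0109 to 0.109 CPM (median 0.0603), which rests on 2 to 22 counts per library. Six3 was 19.4, 4.18, 19.9, 0.124, 0.0738 and 0.0866 CPM in CgA-KO/PS19 replicates 1 to 6. Its level was therefore within the WT range in replicates 1 and 3, between WT and PS19 in replicate 2, and near PS19 in replicates 4 to 6, a 270-fold range within 1 genotype. The WT mean of 17.7 ± 8.02 CPM (SD, n = 5) was 298-fold the PS19 mean of 0.0594 ± 0.0443 CPM (SD, n = 6).

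Nkx2-1 (ENSMUSG00000001496), a homeodomain factor of the medial ganglionic eminence and hypothalamus, lies on chromosome 12 from 56531958 to 56536908, minus strand. It was 1.36, 0.922, 1.91, 2.05 and 2.55 CPM in WT replicates 1 to 5 and 0 to 0.173 CPM in PS19 (median 0.0845). In CgA-KO/PS19 replicates 1 to 6 Nkx2-1 was 0.785, 0.279, 0.909, 0.0533, 0.0738 and 0 CPM. All 6 CgA-KO/PS19 libraries lay below the lowest WT library, which held for no other of the 9 genes and for 355 of all 23062 genes tested. Replicates 1 to 3 lay above every PS19 library. The WT mean was 20.3-fold the PS19 mean, with PS19 libraries at 0 to 27 counts.

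Gbx1 (ENSMUSG00000067724), a Gbx-class homeodomain factor of the spinal cord and basal forebrain, lies on chromosome 5 from 24502757 to 24527202, minus strand. It had the lowest level of the group in WT, with 0.781, 0.261, 0.832, 1.14 and 1.38 CPM in replicates 1 to 5. PS19 libraries were at 0 to 0.136 CPM (median 0.0796). Gbx1 was 0.767, 0.120, 0.793, 0.0533, 0 and 0 CPM in CgA-KO/PS19 replicates 1 to 6, so that again replicates 1 and 3 alone fell within the WT range. The WT mean was 11.4-fold the PS19 mean.

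Dlx5 (ENSMUSG00000029755) and Dlx6 (ENSMUSG00000029754), homeodomain factors of GABAergic neurons, lie next to each other on chromosome 6, Dlx5 from 6877805 to 6882085 on the minus strand and Dlx6 from 6863334 to 6868568 on the plus strand. Both were well above 0 in every library. Dlx5 was 8.45, 9.21, 16.3, 14.1 and 16.4 CPM in WT replicates 1 to 5 and 4.78 to 6.68 CPM in PS19 (median 5.89). Dlx6 was 12.2, 10.3, 22.5, 16.2 and 20.7 CPM in WT and 5.51 to 6.05 CPM in PS19 (median 5.63). WT did not overlap PS19 for either gene, and the ratio of means was 2.21 for Dlx5 and 2.87 for Dlx6. In CgA-KO/PS19 the neighbours went apart: Dlx6 was 11.9, 6.22, 12.4, 6.28, 6.01 and 5.78 CPM in replicates 1 to 6, highest in replicates 1 and 3. Dlx5 was 6.15, 6.12, 5.49, 5.83, 8.61 and 11.3 CPM, highest in replicates 5 and 6.

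Zic1 (ENSMUSG00000032368), a zinc finger factor of the cerebellum, septum and meninges, lies on chromosome 9 from 91358058 to 91365810, minus strand, and was the member whose genotypes overlapped throughout. It was 7.17, 6.81, 25.5, 11.2 and 12.3 CPM in WT replicates 1 to 5 and 5.97 to 11.9 CPM in PS19 (median 9.04). Zic1 was 10.9, 5.98, 10.1, 7.35, 9.46 and 8.95 CPM in CgA-KO/PS19 replicates 1 to 6. Its highest value, in WT replicate 3, stood in the library with the highest olfactory bulb markers, and the part of those markers in it was not tested.

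**Figure D1:**
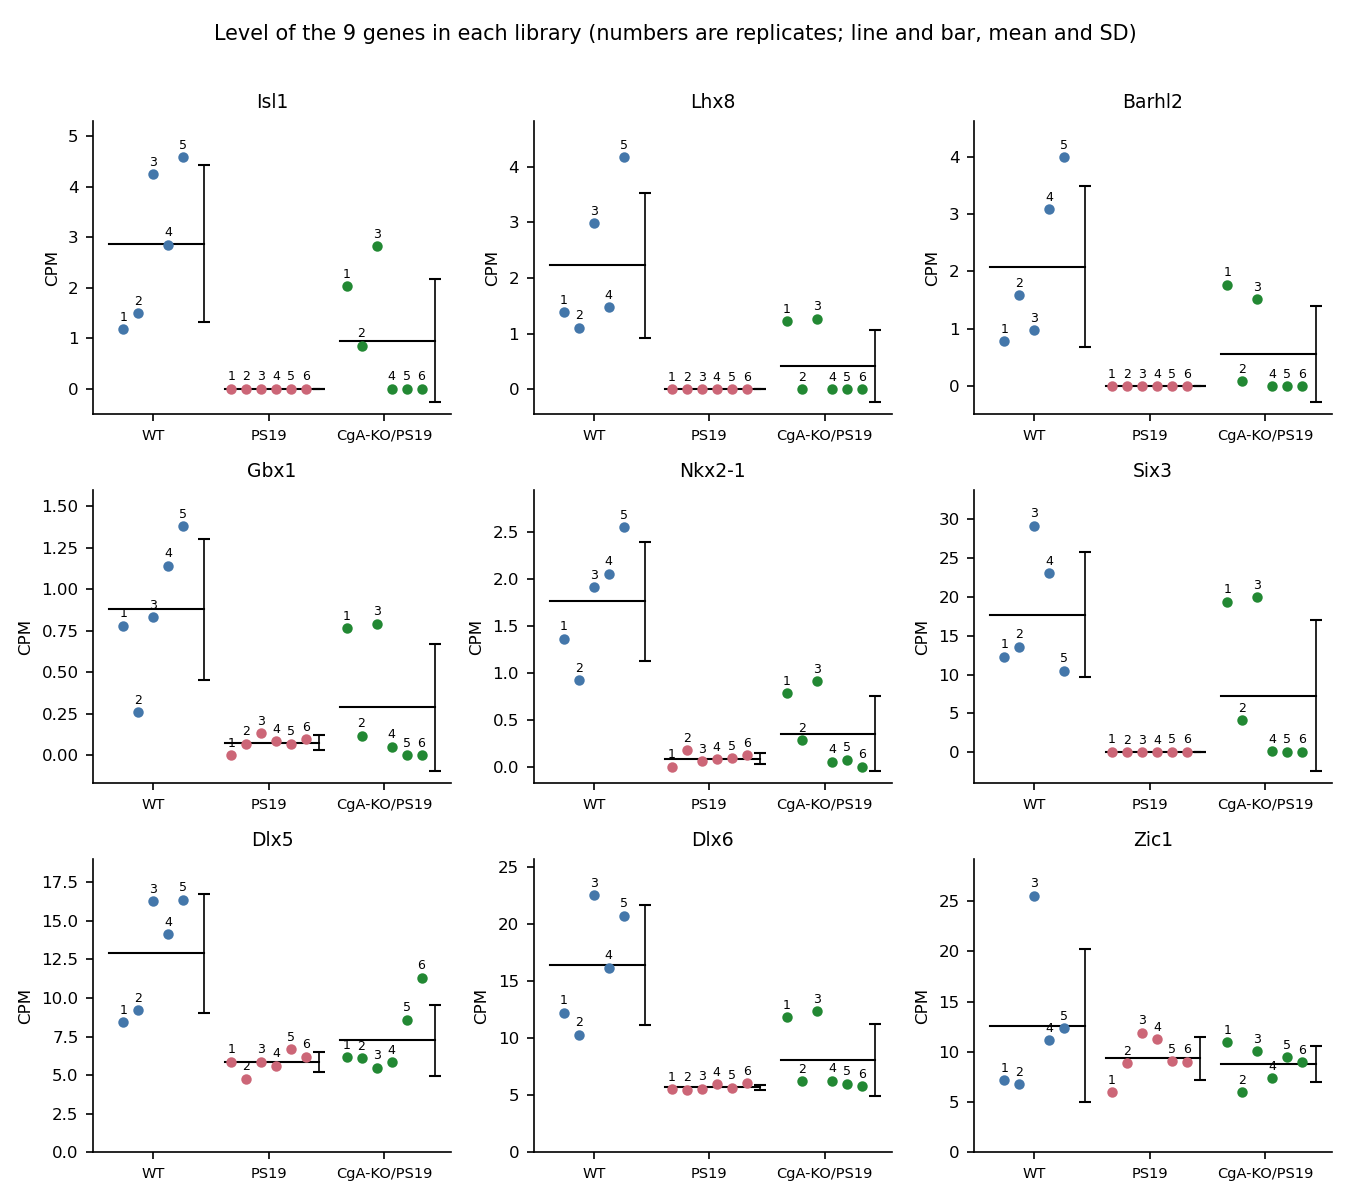
CPM of the 9 genes (vertical axis, linear) in each of 5 WT, 6 PS19 and 6 CgA-KO/PS19 libraries (points, numbered by replicate), with the mean as a line and the SD as a bar. In CgA-KO/PS19, replicates 1 and 3 lie at or near WT for every gene but Dlx5, with Six3 at 19.4 and 19.9 CPM, and replicates 4 to 6 lie near PS19 for all but Dlx5.

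Set per kilobase of annotated exon, the WT levels were ordered Dlx6 (6.91 ± 2.21 CPM per kb, SD, n = 5), Dlx5 (5.70 ± 1.69), Six3 (3.25 ± 1.47), Zic1 (2.22 ± 1.34), Barhl2 (0.900 ± 0.605), Lhx8 (0.879 ± 0.517), Isl1 (0.726 ± 0.391), Nkx2-1 (0.619 ± 0.222) and Gbx1 (0.253 ± 0.122). Dlx6 and Dlx5 differed by less than the smaller SD of the pair, as did Six3 and Zic1, and each neighbouring pair among Barhl2, Lhx8, Isl1 and Nkx2-1. In PS19 the order began with Dlx5 at 2.58 ± 0.279 CPM per kb (SD, n = 6), Dlx6 at 2.41 ± 0.0952 and Zic1 at 1.64 ± 0.368, and the other 6 genes were at or below 0.0305.

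The comparison of WT with PS19 is the one the genes were chosen on, so its counts describe that choice and test nothing. In the edgeR quasi-likelihood fit of all 17 libraries, 8 of the 9 genes were higher in WT at a false discovery rate (FDR) under 0.05, as were 3.95% of the 23062 genes tested, and the exception was Zic1. Every WT library lay above every PS19 library for the same 8 genes and for 4.39% of all genes tested. The median log2 fold change was 4.23 over the 9 genes and -0.01 over all genes. Nothing is read from these counts.

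Comparing CgA-KO/PS19 with PS19 asks how loss of Chga changes these genes when the Tau transgene is present. Six3 rose, with a log2 fold change of 6.99 ± 1.29 (SE, adjusted p = 0.00501, edgeR), and lay above every PS19 library in 4 of 6 CgA-KO/PS19 libraries. Replicate 4 was among these by little, at 0.124 CPM on 14 counts. The PS19 maximum was 0.109 CPM on 6 counts, in a library with a limit of 0.164 CPM. In all, 4 of the 9 genes were higher at an FDR under 0.05, against 5.5% of the 23062 genes tested. The other 3 were Isl1, Lhx8 and Barhl2, which were chosen for 0 counts in PS19 and could not have been lower, so their fitted values are not given. All 9 genes passed the filter on low counts in the fit of 3 genotypes. With CgA-KO/PS19 and PS19 alone, Isl1, Lhx8, Barhl2, Nkx2-1 and Gbx1 did not pass it, and Six3 was the 1 gene called of the 4 that did. The remaining genes did not pass the test: the log2 fold change was 1.98 ± 0.72 for Nkx2-1 (SE, adjusted p = 0.0855), 1.88 ± 0.83 for Gbx1 (0.151), 0.50 ± 0.22 for Dlx6 (0.149), 0.31 ± 0.20 for Dlx5 (0.327) and -0.09 ± 0.27 for Zic1 (0.867, edgeR). The 95% interval of the log2 fold change ran from -0.62 to 0.44 for Zic1 and from -0.08 to 0.70 for Dlx5. For 0 of the 9 genes did every CgA-KO/PS19 library lie above every PS19 library, as it did for 2.84% of all genes. The median log2 fold change was 1.98 over the 9 genes and 0.026 over all. It includes Isl1, Lhx8 and Barhl2, and Nkx2-1 and Gbx1, which passed the filter only with WT in the fit. This median thus follows in part from the choice, and nothing is read from it.

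These calls rested on few libraries. With CgA-KO/PS19 replicates 1 and 3 left out, a choice made after seeing the data, Six3 alone was called, with a log2 fold change of 4.25 (adjusted p = 0.032, edgeR), and its level then stood on the 4.18 CPM of replicate 2. With replicates 1 and 3 averaged into 1 sample, the log2 fold change of Six3 was 6.41 (adjusted p = 0.011, edgeR), and with PS19 replicates 4 to 6 averaged it was 7.31 (adjusted p = 0.0375, edgeR) and Six3 alone was called.

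Comparing CgA-KO/PS19 with WT asks whether the genes differed from mice with neither change. Dlx6 fell by 1.02 ± 0.23 on the log2 scale (SE, adjusted p = 0.0149, edgeR) and Dlx5 fell by 0.83 ± 0.21 (SE, adjusted p = 0.0236, edgeR), and these 2 of 9 genes were the ones lower at an FDR under 0.05, beside 2.89% of all genes tested. Dlx6 was below the lowest WT library in 4 of 6 CgA-KO/PS19 libraries, and so was Dlx5, but not in the same ones: Dlx6 was below in replicates 2 and 4 to 6, and Dlx5 in replicates 1 to 4. Without WT replicate 5, 0 of the 9 genes were called by edgeR, 3 had an unadjusted p under 0.05, and the adjusted p was 0.0833 for Dlx5 and 0.0527 for Dlx6. Nkx2-1 had a log2 fold change of -2.26 ± 0.71 (SE, adjusted p = 0.0669, edgeR). Its CgA-KO/PS19 libraries all lay below every WT library, as did those of 355 of the 23062 genes tested. The log2 fold change was -1.27 ± 0.97 for Six3 (SE, adjusted p = 0.491), -1.51 ± 0.83 for Gbx1 (0.309) and -0.53 ± 0.28 for Zic1 (0.297, edgeR), with a 95% interval from -3.16 to 0.63 for Six3. The median log2 fold change was -1.51 over the 9 genes and 0.009 over all. Isl1, Lhx8 and Barhl2 were chosen in part for counts in WT, so nothing is read from this median. The 3 comparisons share libraries, so their results are not independent of each other.

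**Figure D2:**
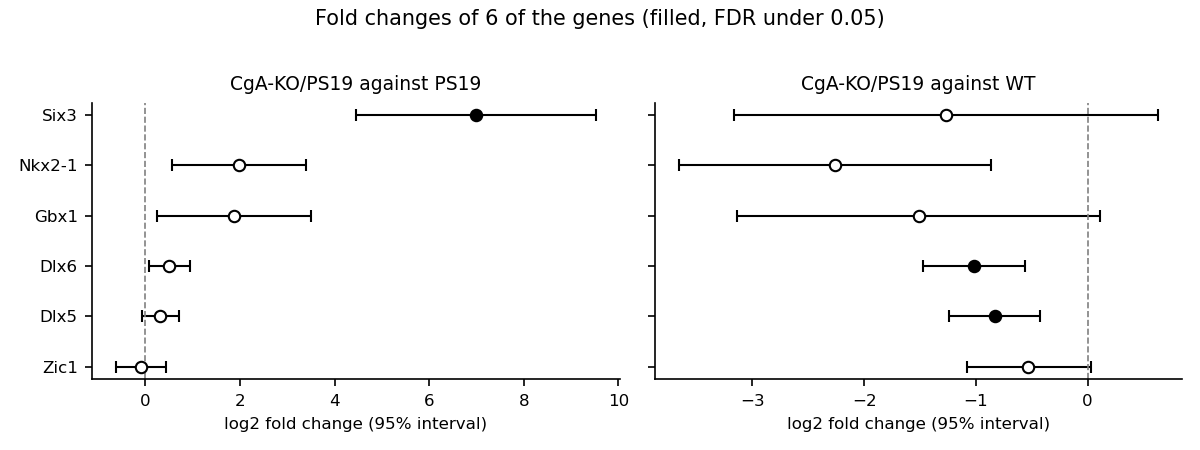
Log2 fold changes (horizontal axis) of the 6 genes with counts in PS19, for CgA-KO/PS19 against PS19 (left) and against WT (right), from the edgeR fit of 17 libraries, with bars for the 95% interval and filled points for an FDR under 0.05. Six3 stands at 6.99 against PS19, and Dlx6 and Dlx5 at -1.02 and -0.83 against WT.

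Within CgA-KO/PS19, replicates 1 and 3 were the 2 highest libraries for 8 of the 9 genes, and Dlx5 was highest in replicates 5 and 6. Of the 9 genes, 7, 5, 7, 2, 1 and 1 lay above every PS19 library in replicates 1 to 6, beside 33.8%, 33.3%, 34.1%, 19.4%, 25.4% and 30.7% of all genes tested. Isl1, Lhx8 and Barhl2 were chosen for 0 counts in PS19, so any count put them above it, as in replicates 1 and 3. Barhl2 lay above PS19 in replicate 2 on 4 counts, 0.0797 CPM, which is below that library's limit of 0.179 CPM. The counts above PS19 thus follow in part from the choice. At or above the lowest WT library were 7, 0, 7, 1, 2 and 2 of the 9 genes, beside 78.1%, 81.0%, 78.5%, 86.4%, 87.9% and 82.9% of all genes tested. The 7 of 9 in replicates 1 and 3 were near the share of all genes, and the counts of the other 4 libraries were below it. Isl1, Lhx8 and Barhl2 were also chosen for counts in WT, so a count of 0 put them below every WT library. A gene at 0 in any WT library, by contrast, was at or above the lowest WT library even at a count of 0, which raises the share of all genes. Nothing is read from this difference. Replicates 1 to 3 were also the CgA-KO/PS19 libraries with Ddx3y, and WT replicates 4 and 5, which lacked Ddx3y, had Isl1 at 2.85 and 4.59 CPM. With the level of Ddx3y as a covariate in the edgeR fit, Six3 had a log2 fold change of 6.07 against PS19 (adjusted p = 0.0125). That covariate is shared by all genotypes, so it cannot remove a difference by sex that is confined to CgA-KO/PS19. Within CgA-KO/PS19, sex cannot be told apart from a split of replicates 1 to 3 from replicates 4 to 6. Replicates 1 and 3 also differed from replicate 2, which had Ddx3y at 73.6 CPM with Six3 at 4.18 CPM, Isl1 at 0.857 CPM and Lhx8 at 0. What sets replicates 1 and 3 apart from replicate 2 was not tested.

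Ratios between the genes in 1 library do not depend on its depth. Six3 was 10.4, 9.10, 6.85, 8.08 and 2.29 times Isl1 in WT replicates 1 to 5, and 9.54, 4.88 and 7.06 times in CgA-KO/PS19 replicates 1 to 3. Six3 to Lhx8 was 8.85, 12.3, 9.77, 15.5 and 2.52 in the 5 WT libraries. In CgA-KO/PS19 replicates 1 and 3 it was 15.8 and 15.7. The low ratios of WT replicate 5 came with the highest Isl1, Lhx8, Barhl2, Nkx2-1 and Gbx1 of all libraries and the lowest Six3 of WT, and with the high choroid plexus markers named above, whose part was not tested. Dlx6 to Dlx5 was 1.12 to 1.45 in WT and 0.850 to 1.15 in PS19. It was 1.93 and 2.26 in CgA-KO/PS19 replicates 1 and 3, above every WT library, and 1.02, 1.08, 0.698 and 0.510 in replicates 2, 4, 5 and 6.

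**Figure D3:**
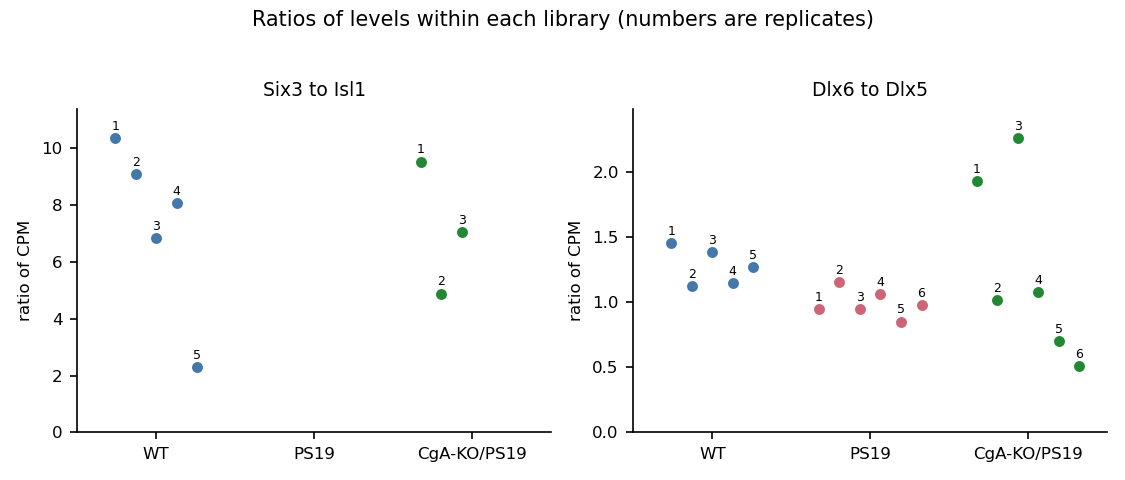
Ratio of CPM (vertical axis) of Six3 to Isl1 (left) and of Dlx6 to Dlx5 (right) within each library, numbered by replicate; Six3 to Isl1 is shown only where Isl1 had more than 9 counts, so PS19 has no point. Dlx6 to Dlx5 is 0.850 to 1.15 in PS19 and reaches 1.93 and 2.26 in CgA-KO/PS19 replicates 1 and 3.

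The libraries with these genes were also the ones with markers of subcortical neurons, whose part in the results was not tested. Medium spiny neurons are the projection neurons of the striatum, and 15 of their markers summed to 1465 to 5068 CPM in WT, 516.9 to 691.7 CPM in PS19 and 3182, 784.3, 3259, 522.2, 476.2 and 404.6 CPM in CgA-KO/PS19 replicates 1 to 6. In CgA-KO/PS19 against PS19, 8 of the 15 rose, beside 5.5% of all genes tested, 0 fell, and the median log2 fold change of the list was 2.10. Among them were the dopamine receptor genes Drd2 (log2 fold change 4.85, adjusted p = 0.00928) and Drd1 (2.28, adjusted p = 0.0139, edgeR). Drd2 was 83.0, 10.9, 76.9, 0.889, 1.09 and 1.47 CPM in CgA-KO/PS19 replicates 1 to 6, and the same replicates that were high for Six3 were high for Drd2. DESeq2 called 9 higher and 1 lower.

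Of 7 cholinergic neuron genes, 2 rose in CgA-KO/PS19 against PS19, beside 5.5% of all genes tested. Among the 2 was the transporter-like Slc10a4 (log2 fold change 3.43, adjusted p = 0.0447, edgeR). Slc10a4 was 2.18, 0.120, 2.47, 0.0978, 0 and 0 CPM in CgA-KO/PS19 replicates 1 to 6, highest in replicates 1 and 3 like Lhx8. Ache, the gene of acetylcholinesterase, was next by p with a log2 fold change of -0.37 (adjusted p = 0.0999, edgeR). Ache and 1 other gene of the list fell in CgA-KO/PS19 against WT, Ache by 0.71 on the log2 scale (adjusted p = 0.00954, edgeR). The list summed to 49.2 to 96.1 CPM in WT, 28.1 to 39.0 CPM in PS19 and 41.9, 20.8, 41.6, 29.8, 33.6 and 26.2 CPM in CgA-KO/PS19 replicates 1 to 6. Ache was 24.6 to 36.3 CPM in PS19 and 18.2 to 30.9 CPM in CgA-KO/PS19, most of the sum in each of these libraries. Of the 7 genes, 6, 0, 6, 0, 1 and 0 lay above every PS19 library in CgA-KO/PS19 replicates 1 to 6, beside the shares of all genes tested given above. None of its genes was at 0 in every library of a genotype.

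Of 19 other transcription factors of the ventral forebrain, Meis1 (log2 fold change 1.32, adjusted p = 0.0233) and Ebf1 (0.86, adjusted p = 0.0387, edgeR) rose in CgA-KO/PS19 against PS19, and 3 of the 19 fell against WT. In WT against PS19, 10 of these 19 genes were higher, as were 11 of the 15 medium spiny neuron markers and 6 of the 7 cholinergic genes, in a comparison whose libraries chose the members. Of all genes tested, 3.95% were higher in WT against PS19, 5.5% rose in CgA-KO/PS19 against PS19 and 2.89% fell in CgA-KO/PS19 against WT. Of the other genes of the members' own families, 31 in the table and 18 tested, Six4 fell in CgA-KO/PS19 against PS19 by 1.11 on the log2 scale (adjusted p = 0.033, edgeR) and the other 17 did not pass. Isl2, the paralog of Isl1, was at 0 in every PS19 and every CgA-KO/PS19 library, and Lhx1 was at 0 in every CgA-KO/PS19 library. Barhl1, the paralog of Barhl2, went the other way: it was at 0 in every WT library but not throughout PS19 or CgA-KO/PS19. Six6, the paralog of Six3, and Nkx2-3, Nkx2-4, Nkx2-5 and Nkx2-6 were at 0 in all 17 libraries. None of these genes was among the 18 tested. Lhx6, a target of Nkx2-1 in cortical interneurons named here after its values were seen, was 24.9 ± 1.72 CPM in PS19 (SD, n = 6) against 27.5 ± 6.50 CPM in WT (SD, n = 5), with a log2 fold change of -0.16 in CgA-KO/PS19 against PS19 (adjusted p = 0.603, edgeR). Of 9 cofactors of LIM homeodomain proteins, 0 were called by edgeR in CgA-KO/PS19 against PS19, 1 had an unadjusted p under 0.05 and DESeq2 called 1 lower, with Ssbp3 at a log2 fold change of -0.40 (adjusted p = 0.065, edgeR).

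**Figure D4:**
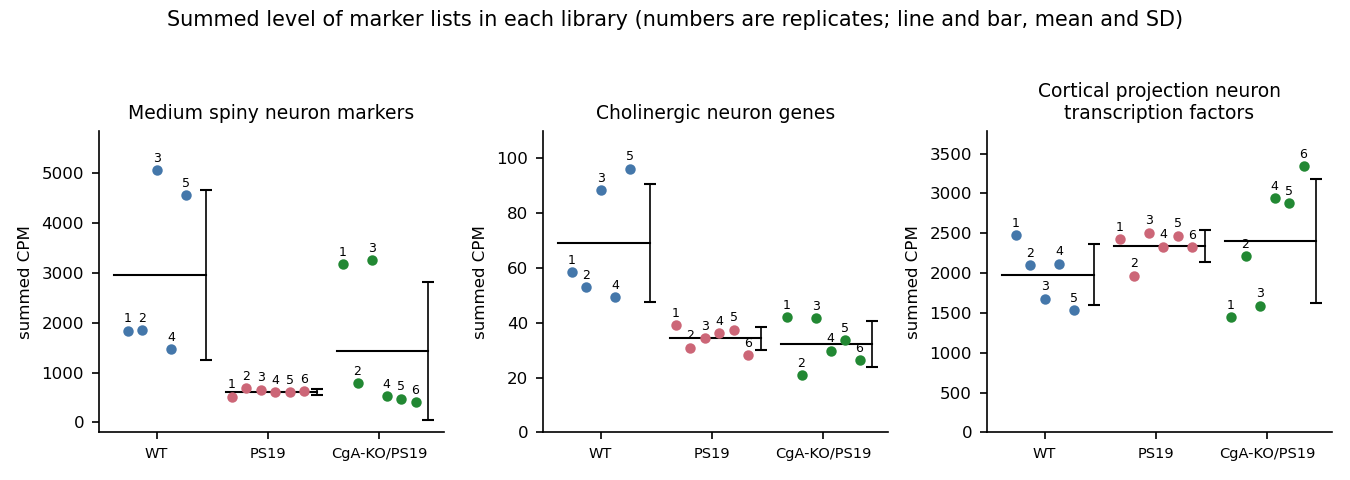
Summed CPM (vertical axis, linear) of 15 medium spiny neuron markers, 7 cholinergic neuron genes and 17 cortical projection neuron transcription factors in each library (points, numbered by replicate), with the mean as a line and the SD as a bar. Medium spiny neuron markers sum to 3182 and 3259 CPM in CgA-KO/PS19 replicates 1 and 3 and to 404.6 to 784.3 CPM in the other 4. Ache makes up most of the cholinergic sum in every PS19 and CgA-KO/PS19 library.

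Markers of the labelled tissue were present throughout: 17 transcription factors of cortical projection neurons summed to 1536 to 2477 CPM in WT, 1966 to 2509 CPM in PS19 and 1443, 2216, 1590, 2938, 2876 and 3344 CPM in CgA-KO/PS19 replicates 1 to 6, lowest in replicates 1 and 3. One of them, Emx1, fell in CgA-KO/PS19 against PS19 by 0.86 on the log2 scale (adjusted p = 0.0313, edgeR), where 4.22% of all genes tested were lower. Of 4 GABA synthesis and transport genes, Gad1 fell by 0.78 (adjusted p = 0.00761) and Slc32a1 by 0.62 (adjusted p = 0.0367, edgeR), and of 9 cortical interneuron markers 3 fell, among them Pvalb by 0.88 (adjusted p = 0.0219, edgeR). GABAergic genes shared with the cortex thus went the opposite way from Six3 and the medium spiny neuron markers. Of the other lists, 1 thalamus and habenula marker (Prkcd) and 1 choroid plexus marker (Clic6) rose against PS19 and 1 thalamus and habenula marker (Gpr151) fell. Hypothalamus, olfactory bulb and meninges markers gave 0 calls against PS19 by edgeR, with 0, 1 and 3 at an unadjusted p under 0.05 and 0, 0 and 2 lower by DESeq2. Against WT, 3 hypothalamus, 1 olfactory bulb, 4 choroid plexus and 1 meninges marker fell by edgeR, and 3, 1, 2 and 1 by DESeq2. Some of these calls rest on 1 WT library. Tbx21, the olfactory bulb marker, was 4.65 CPM in WT replicate 3 and at most 0.0922 CPM in the other WT libraries. Ttr, a choroid plexus marker, was 1023 CPM in WT replicate 5 and 3.24 to 9.92 CPM in the others. Hypothalamus markers summed to 2.43 to 29.7 CPM in WT, 1.21 to 2.24 CPM in PS19 and 0.289 to 2.85 CPM in CgA-KO/PS19.

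Genes that overlap the members in the annotation were read because the strand setting of the counting is not given in the sources used here. Six3os1, on the strand opposite Six3 with 106 exonic bases in common, was 1.92 to 5.32 CPM in WT and 0 to 0.0264 CPM in PS19. It was 6.42, 0.857, 5.43, 0, 0 and 0.116 CPM in CgA-KO/PS19 replicates 1 to 6, and its log2 fold change against PS19 was 8.14 (adjusted p = 0.00527, edgeR). In CgA-KO/PS19 it was thus highest in the same replicates as Six3, whereas in WT replicate 5 it was highest of WT (5.32 CPM) and Six3 lowest. Reads of the pair cannot be told apart where they overlap. Gm28528, which shares 168 exonic bases with Six3, had counts in 2 WT and 2 CgA-KO/PS19 libraries, at most 0.268 CPM. Dlx6os1, opposite Dlx6 with 0 exonic bases in common, was 7.07 to 19.4 CPM in WT, 4.10 to 7.18 CPM in PS19 and 3.68 to 8.06 CPM in CgA-KO/PS19, and fell against WT by 0.84 on the log2 scale (adjusted p = 0.0476, edgeR). Dlx6os2, with 104 exonic bases in common with Dlx6, was at most 0.439 CPM, and Zic4, with 60 in common with Zic1, at most 2.94 CPM. Gm26973 overlaps Nkx2-1 with 0 exonic bases in common and was at most 0.0826 CPM.

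Outside the group, the genes whose levels over the 17 libraries were most like the mean of the 9 were Gpr149, Ebf1, Sp9, Slitrk6 and Crabp1. Their root mean square difference from that mean, on the centred log2(CPM + 1) scale, was 0.182, 0.184, 0.189, 0.195 and 0.203, against a median of 0.762 over the 23053 genes compared. Among the 9 genes themselves this difference was 0.139 (Dlx6) to 1.33 (Six3), and Six3 was thus farther from the mean than the median gene. Gpr149 was 1.86 to 5.00 CPM in WT, 0.364 to 0.499 CPM in PS19 and 2.98, 1.47, 3.32, 0.640, 0.627 and 0.202 CPM in CgA-KO/PS19 replicates 1 to 6. Ebf1 was 7.12 to 15.0 CPM in WT, 3.52 to 4.36 CPM in PS19 and 11.1, 6.65, 11.4, 4.31, 4.92 and 5.34 CPM in CgA-KO/PS19. Both had replicates 1 and 3 highest and replicate 2 between these and the other 3.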

How the data were processed

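Poly(A) RNA of the prefrontal cortex was sequenced in 17 libraries. Per the submitters' processing notes and the study's methods, the authors trimmed reads with Trimmomatic 0.39, aligned them to mm10 with STAR 2.7.10b, quantified transcripts with StringTie 1.3.6 and deposited counts per gene from prepDE, without normalization. prepDE turns coverage into counts by a set read length. From the values, about 3 counts stood for 1 fragment, so low counts look more precise than they are. The annotation release and the strand setting are not given in the sources used here. Of 56953 genes, 52029 matched GENCODE M21 (GRCm38) by identifier, which gave coordinates and exon lengths. No entry lacked a gene name.

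Libraries were grouped by genotype as labelled, and the labels name no mouse, so replicates were taken as separate mice and p-values measure the spread between these libraries. The deposited counts were fitted with edgeR 4.0.16 in R 4.3.3 (TMM, filterByExpr by genotype, quasi-likelihood test, 1 mean per genotype, no covariate), with p-values adjusted by Benjamini-Hochberg across 23062 genes and a threshold of 0.05. The scripts were tested on simulated counts. Alternatives were DESeq2 1.42.0, its size factors in edgeR, no filter, 2 genotypes per fit, limma 3.58.1 voom with quality weights, a block for the replicate number, counts divided by 3, Ddx3y as a covariate, averaging of PS19 replicates 4 to 6 and each library left out in turn. Leaving out or averaging CgA-KO/PS19 replicates 1 and 3 was added after seeing the data. Members, the 18 gene lists and the tests were chosen with earlier results of these data known. Named in the text are the members, genes overlapping them, genotype checks, of each list at most the 3 genes with the smallest p in CgA-KO/PS19 against PS19 and genes at 0 in a whole genotype, and the 5 genes most like the members' mean. Lhx6 was named after its values had been seen. Some genes of the lists are not reported here by name. The promoter windows are those of RefSeq (GRCm38.p6), cut to the 250 bases before the start. Python 3.11.15 made the tables and plots, with pandas 2.3.3 and matplotlib 3.10.9.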

Additional observations from a re-analysis of the deposited data

How the results depend on the processing

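In CgA-KO/PS19 against PS19, 4 of the 9 members were called higher, beside 5.5% of the 23062 genes tested, and 3 to 5 members with each library left out in turn. Among the 4 were Isl1, Lhx8 and Barhl2, chosen for 0 counts in PS19. The count of members called was 1 (Six3) with PS19 replicates 4 to 6 averaged, 1 with CgA-KO/PS19 replicates 1 and 3 left out, and 1 of 4 tested with only the 2 genotypes in the fit. The counts of all genes called higher were 1268 as reported, 2338 with DESeq2, 744 with no filter on low counts, 2379 with limma voom, 313 with PS19 replicates 4 to 6 averaged, 465 with CgA-KO/PS19 replicates 1 and 3 left out and 721 with these averaged. Leaving out 1 library gave 616 to 2018, the highest without CgA-KO/PS19 replicate 4, while leaving out any of PS19 replicates 2 to 6 or CgA-KO/PS19 replicates 1 to 3 gave 616 to 828. The cause was not tested.

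Against WT, 2 members were called, both lower, beside 2.89% of the 23062 genes tested. With only the 2 genotypes in the fit, 0 members were called (edgeR, 3 at an unadjusted p under 0.05, and 3 called by DESeq2). The count of members called was 4 with limma voom, 6 with CgA-KO/PS19 replicates 1 and 3 left out and 1 with these averaged. The share of all genes called lower in these alternatives is not given. Replicates 1 and 3 were picked after the members were seen to be high there, so the 6 follow in part from that choice. Leaving out 1 library gave 0 to 2, with 0 without WT replicate 5 and 1 without WT replicate 3 or CgA-KO/PS19 replicate 1 or 2. All genes called higher were 822 as reported, 1518 with DESeq2, 504 with no filter, 151 with only the 2 genotypes in the fit, and 341 to 1053 with 1 library left out, the lowest without WT replicate 5 and 463 without CgA-KO/PS19 replicate 2. In WT against PS19, all genes called higher were 911 as reported, 1386 with DESeq2, 2099 with limma voom, 364 with PS19 replicates 4 to 6 averaged, and 505 to 1052 with 1 library left out, the lowest without WT replicate 5.

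With 1 library left out, the log2 fold change of Zic1 was -0.19 to 0.00 in CgA-KO/PS19 against PS19 and -0.00 to 0.60 in WT against PS19. Directions turned for Zic1, from a log2 fold change of -0.09 to 0.00 against PS19 without PS19 replicate 3 or without CgA-KO/PS19 replicate 2, and from 0.44 to -0.00 in WT against PS19 without WT replicate 3. With CgA-KO/PS19 replicates 1 and 3 left out, the log2 fold change against PS19 was 0.00 for Lhx8, now at 0 counts in both groups, and -0.81 for Gbx1. Over all alternatives, 686 of the member fold changes kept direction and side of the threshold, 28 lost the call, 14 gained it and 5 turned.

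With the replicate number as a replicate block, 0 members were called by edgeR in CgA-KO/PS19 against PS19 (4 at an unadjusted p under 0.05, and 5 called by DESeq2 without the block), with Six3 at an adjusted p of 0.0606, and 2 against WT. All genes called higher with the replicate block were 388 and 325 in these comparisons and 513 in WT against PS19. Same-numbered libraries deviated from their group means with a Pearson r across genes of -0.0188 to 0.112 for WT and PS19, -0.0718 to 0.0252 for PS19 and CgA-KO/PS19 and -0.0911 to 0.414 for WT and CgA-KO/PS19, so the numbers were not taken to pair the mice.

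Depth limits the lowest members: WT replicate 4 allows 1.03 CPM at a count of 0, and Lhx8 and Gbx1 there rest on 13 and 10 counts. The genotypes differ in the markers of other regions, and sex is not given for each library.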
